A study of Arabidopsis thaliana with 6 samples.

Results

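The genes described here take up sulfate and carry it through the first steps of its reduction in *Arabidopsis*. They are the 8 loci *SULTR1;1* (AT4G08620), *SULTR1;2* (AT1G78000), *SULTR2;1* (AT5G10180), *SULTR4;2* (AT3G12520), *ATPS1* (AT3G22890), *APR1* (AT4G04610), *APR2* (AT1G62180) and *APR3* (AT4G21990). They were chosen by locus code among the 29030 locus codes on the array. They have 9 probes, of which 2 belong to AT1G78000 and 1 to each other gene. Every one of these probes was well above background, by the scanner software's own flag, on all 6 arrays.

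Expression was measured on 3 one-color Agilent arrays of *hy5* seedlings and 3 of wild-type seedlings, which addressed the effect of the loss of HY5 on transcripts. The *hy5* line is the single insertion allele SALK_096651 in the Col background, and wild type is Col. Seedlings of both genotypes were grown for 3 days under continuous white light on Murashige Skoog medium without sucrose, and total RNA was labeled with Cy3. HY5 is a DNA-binding protein best known for promoting seedling development in light.

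Sulfate enters the root through the high-affinity transporters of group 1, here AT4G08620 and AT1G78000. The transporter AT5G10180 moves it in vascular tissue, and AT3G12520 releases it from the vacuole. In the cell, ATP sulfurylase (*ATPS1*) couples sulfate to ATP and forms adenosine phosphosulfate (APS). APS reductase (*APR1*, *APR2* and *APR3*) turns APS into sulfite in the plastid, a step long known to follow light and to control flux into cysteine. APS kinase competes for the same APS and makes the sulfate donor used for glucosinolates and other sulfated compounds.

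Signals are given as the intensity of a probe divided by the 75th percentile of the non-control spots on the same array. This divisor was 981 to 1057 on the *hy5* arrays and 487 to 558 on the wild-type arrays, so all differences are relative to it. Genotypes were compared with limma on log2 values over 21590 genes. Genes with a p under 0.05 after Benjamini-Hochberg adjustment are said to have risen or fallen, and those that also changed at least 2-fold are termed called. Arrays of each genotype lay on a slide of their own, scanned in a session of its own, and slides and genotype cannot be told apart. Neither the labels nor the methods say whether replicates were separate plant samples, so the p-values measure the spread between these arrays, which may be technical. *HY5* itself had a signal of 0.0217, 0.0283 and 0.0169 on the *hy5* arrays, against 1.32, 1.38 and 1.24 on the wild-type arrays (log2 difference -5.91, limma adjusted p = 7.57e-06).

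All 4 of these sulfate transporters were higher in *hy5*, though AT4G08620 and AT3G12520 did not pass the test with another background correction (normexp). That setting also added an offset of 50 to every intensity, which weighs more on dim probes and on the wild-type arrays, whose intensities were lower. AT3G12520 also did not pass with the methods' t-test after adjustment (adjusted p = 0.0658). *APR2* and *APR3* were lower, and *APR1* and *ATPS1* did not pass the test. Only AT1G78000 was called, at 2.25-fold higher in *hy5*. 6.55% of all genes tested were called higher and 4.84% were called lower, against 1 and 0 of these 8 genes. At the adjusted p alone, 4 of the 8 rose and 2 fell, while 26.3% of all genes rose and 26.6% fell, 52.8% together. The groups did not overlap for 6 of the 8 genes, and 62.5% of all genes were without overlap. The 8 genes had a median log2 difference of 0.30, against -0.0044 over all genes tested. With normexp these medians were -0.0061 and -0.20.

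**Figure D1:**
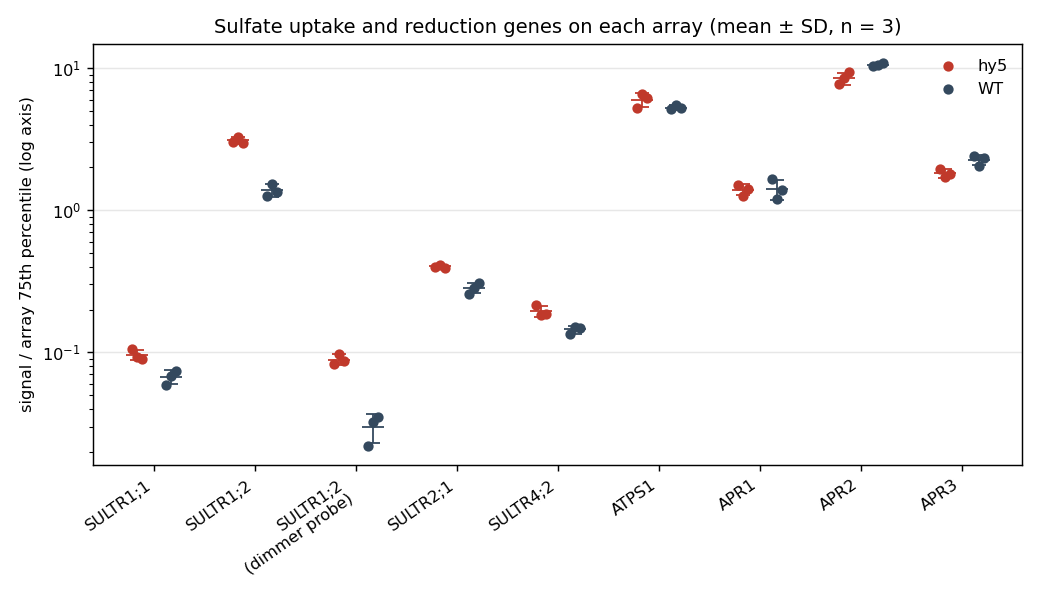
Signal over the array's 75th percentile (log axis) for the 9 probes of the 8 genes. Each point is 1 array, with *hy5* in red on the left and wild type in dark blue on the right, and bars give the mean ± SD of 3 arrays. The points of both genotypes are apart for all 4 transporters, and both probes of AT1G78000 are higher in *hy5*, while the points overlap for *ATPS1* and *APR1*.

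The root uptake transporter AT1G78000, *SULTR1;2*, had signals of 3.03, 3.27 and 2.98 on the *hy5* arrays, against 1.26, 1.53 and 1.34 on the wild-type arrays. Every *hy5* array was above every wild-type array. The log2 difference was 1.17 (standard error 0.104, abbreviated SE below, 95% interval 0.92 to 1.41, limma adjusted p = 0.000139). Its dimmer probe gave 0.0825, 0.0975 and 0.0864 in *hy5* and 0.0221, 0.0322 and 0.0350 in wild type. On the log2 scale this probe differed by 1.60, in the same direction as the brighter one (SE 0.178, limma adjusted p = 0.000445 in a fit over all tested probes). Its unscaled intensity was only 83.9 to 95.6 in *hy5* and 10.8 to 19.5 in wild type, so the size of its difference is uncertain. In RNA of whole seedlings, more cells that express a gene and more of its RNA per cell cannot be told apart.

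The other uptake transporter, AT4G08620, is known to be induced when sulfate is scarce. Its signals were 0.106, 0.0920 and 0.0904 in *hy5*, against 0.0593, 0.0682 and 0.0744 in wild type. The log2 difference was 0.52 (SE 0.117, limma adjusted p = 0.00814), and it was -0.075 (adjusted p = 0.456) with normexp background correction. The probe was dim, with an unscaled intensity of 90.2 to 107.6 in *hy5* and 28.9 to 41.5 in wild type.

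The vascular transporter AT5G10180 had signals of 0.397, 0.413 and 0.394 in *hy5*, against 0.259, 0.284 and 0.306 in wild type. This 1.42-fold rise (log2 difference 0.51, SE 0.0948, limma adjusted p = 0.0034) was seen on every *hy5* array relative to every wild-type array. The vacuolar transporter AT3G12520 had 0.214, 0.182 and 0.186 in *hy5* and 0.134, 0.152 and 0.149 in wild type. Its rise was 1.34-fold (log2 difference 0.42, SE 0.104, limma adjusted p = 0.0116). With normexp the rise of AT5G10180 was 0.35 on the log2 scale (limma adjusted p = 0.00177), while AT3G12520 was at 0.024 (adjusted p = 0.813). With the methods' t-test after adjustment, AT5G10180 passed (adjusted p = 0.033) and AT3G12520 did not (0.0658).

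*ATPS1*, which forms APS, had signals of 5.25, 6.57 and 6.18 in *hy5* and 5.12, 5.49 and 5.21 in wild type. The groups overlapped. The log2 difference was 0.18, with a 95% interval of -0.071 to 0.43 (limma adjusted p = 0.193). It was 0.27 without *hy5* replicate 1 (limma adjusted p = 0.0436) and 0.22 with normexp (0.0399).

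Among the APS reductases, *APR2* had signals of 7.67, 8.45 and 9.31 in *hy5*, against 10.4, 10.4 and 10.8 in wild type. It was 1.25-fold lower in *hy5* (log2 difference -0.32, SE 0.0995, limma adjusted p = 0.0285). *APR3* had 1.95, 1.70 and 1.80 in *hy5*, against 2.39, 2.05 and 2.33 in wild type. It was 1.24-fold lower in *hy5* (log2 difference -0.31, SE 0.102, limma adjusted p = 0.0344). Every *hy5* array was below every wild-type array for both genes, yet both falls are small. The fall of *APR2* stayed under an adjusted p of 0.05 only without *hy5* replicate 3, and was at 0.0603 to 0.078 without each other array in turn. That of *APR3* lost the threshold without *hy5* replicate 2 (0.0932), *hy5* replicate 3 (0.0863), wild-type replicate 1 (0.114) or wild-type replicate 3 (0.0931).

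*APR1* had signals of 1.51, 1.27 and 1.40 in *hy5* and 1.65, 1.19 and 1.40 in wild type. The ranges overlapped almost fully. The log2 difference was -0.01, with a 95% interval of -0.33 to 0.31 (limma adjusted p = 0.956), which leaves room for a change as large as those of *APR2* and *APR3*. The unscaled intensities of all 9 probes were higher on the *hy5* arrays, the APS reductases included (*APR2* 7800 to 9844 in *hy5* and 5069 to 6040 in wild type). The falls of *APR2* and *APR3* are therefore falls relative to the 75th percentile.

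**Figure D2:**
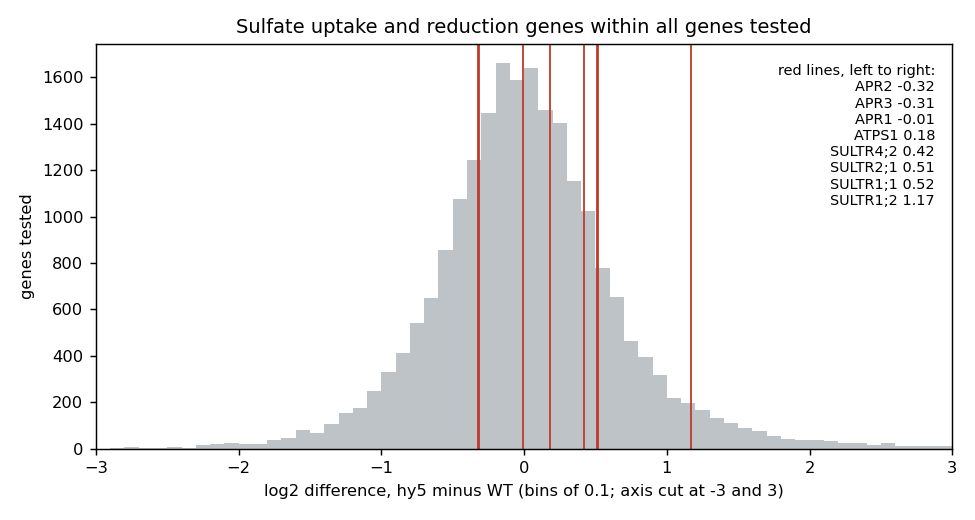
Number of genes tested in each bin of the log2 difference, *hy5* minus wild type (grey bars, 21590 genes, axis limited to -3 to 3). Red lines mark the 8 sulfate uptake and reduction genes. *SULTR1;2* at 1.17 lies in the upper tail, *APR2* at -0.32 and *APR3* at -0.31 on the left flank and the others between -0.01 and 0.52.

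Ordered by log2 difference, the 8 genes ran from *APR2* and *APR3* through *APR1* and *ATPS1* to AT3G12520, AT5G10180, AT4G08620 and AT1G78000. The 95% intervals of neighbors in this order overlapped, except between AT4G08620 and AT1G78000. Ratios of 2 genes on the same array, which do not depend on the scaling between arrays, were compared with exact permutation tests, two-sided, whose smallest possible p with 3 against 3 arrays is 0.1. The log2 ratio of AT1G78000 over AT4G08620 was 5.01 ± 0.159 in *hy5* and 4.36 ± 0.164 in wild type (SD, n = 3 each, exact p = 0.1, adjusted 0.3). The groups did not overlap, and the ratio was larger in *hy5* by 0.65 on the log2 scale. With normexp it was larger by 1.26, but the added offset does not cancel in a ratio and weighs most on the dim AT4G08620 in wild type. The log2 ratio of *APR1* over *APR2* was -2.60 ± 0.227 in *hy5* and -2.91 ± 0.239 in wild type, with overlap (SD, n = 3 each, exact p = 0.3, 0.45 after Benjamini-Hochberg adjustment over the 3 ratios). For *APR3* over *APR2* it was -2.22 ± 0.216 in *hy5* and -2.23 ± 0.113 in wild type (SD, n = 3 each, exact p = 1, adjusted 1). These values are ratios of probe signals, and only their difference between genotypes can be read.

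The genes closest to AT1G78000 in their pattern over the 6 arrays, by Euclidean distance between gene-centered log2 values, were AT1G16310, *GPAT6* (AT2G38110) and AT2G20080. Their distances were 0.105, 0.117 and 0.136, and their log2 differences were 1.14, 1.13 and 1.15. With 2 genotypes, this likeness is mostly that of the size of the difference.

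Tissue markers moved between genotypes beside these values. Of 10 root markers, 9 rose in *hy5*, among them *CASP1* to *CASP5* of the Casparian strip (log2 differences of 0.88 to 1.45) and the root aquaporin AT5G47450 (2.85). *PYK10* was at 0.019 (limma adjusted p = 0.892). The summed root marker signal was 239 to 275 in *hy5* and 191 to 232 in wild type, most of it from *PYK10*. All 7 markers of green tissue were lower, 6 of them past the test, with log2 differences of -0.59 to -0.052, and under quantile normalization 2 of the 7 were higher. Their summed signal was 1580 to 1748 in *hy5* and 2103 to 2396 in wild type. All 8 seed markers rose, by a median of 3.20 on the log2 scale, and summed to 8.23 to 15.1 in *hy5*, against 0.723 to 1.62 in wild type. Among them, *OLEO2* was well above background on 2 of the 3 wild-type arrays and was tested only through *hy5*. For *SESA3* the arrays of both genotypes overlapped. Beside these marker counts, 26.3% of all genes tested rose and 26.6% fell. No defining root or green marker was below background on any array. AT1G78000 is known as a root gene. Its log2 difference of 1.17 lay within the wide range of the root markers, 0.019 to 2.85. The other root uptake gene, AT4G08620, was at 0.52, or -0.075 with normexp. The transporter AT5G19600, described below, was at -1.93. The part of tissue makeup in the differences of the sulfate genes was not tested.

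The rest of the pathway was described with 38 further genes, of which 36 had a tested probe. Of these 36, 12 rose, 12 fell and 12 did not pass the test, while 26.3% of all genes rose and 26.6% fell. The genes past both thresholds were *APK2*, which was higher in *hy5*, and the transporter AT5G19600 and *LSU4*, which were lower. AT5G19600 and *LSU4* entered the test through wild type alone, and of the 3 only *APK2* was left when a probe had to be well above background on all 6 arrays. A count made after the values were seen took the 33 genes with such probes. Of these, 12 rose and 10 fell, against 25.3% and 28.5% of the 19647 genes of that kind. Called were 3 of the 36, against 11.4% of all genes tested. The 36 genes had a median log2 difference of -0.10, and the 33 had one of -0.097.

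**Figure D3:**
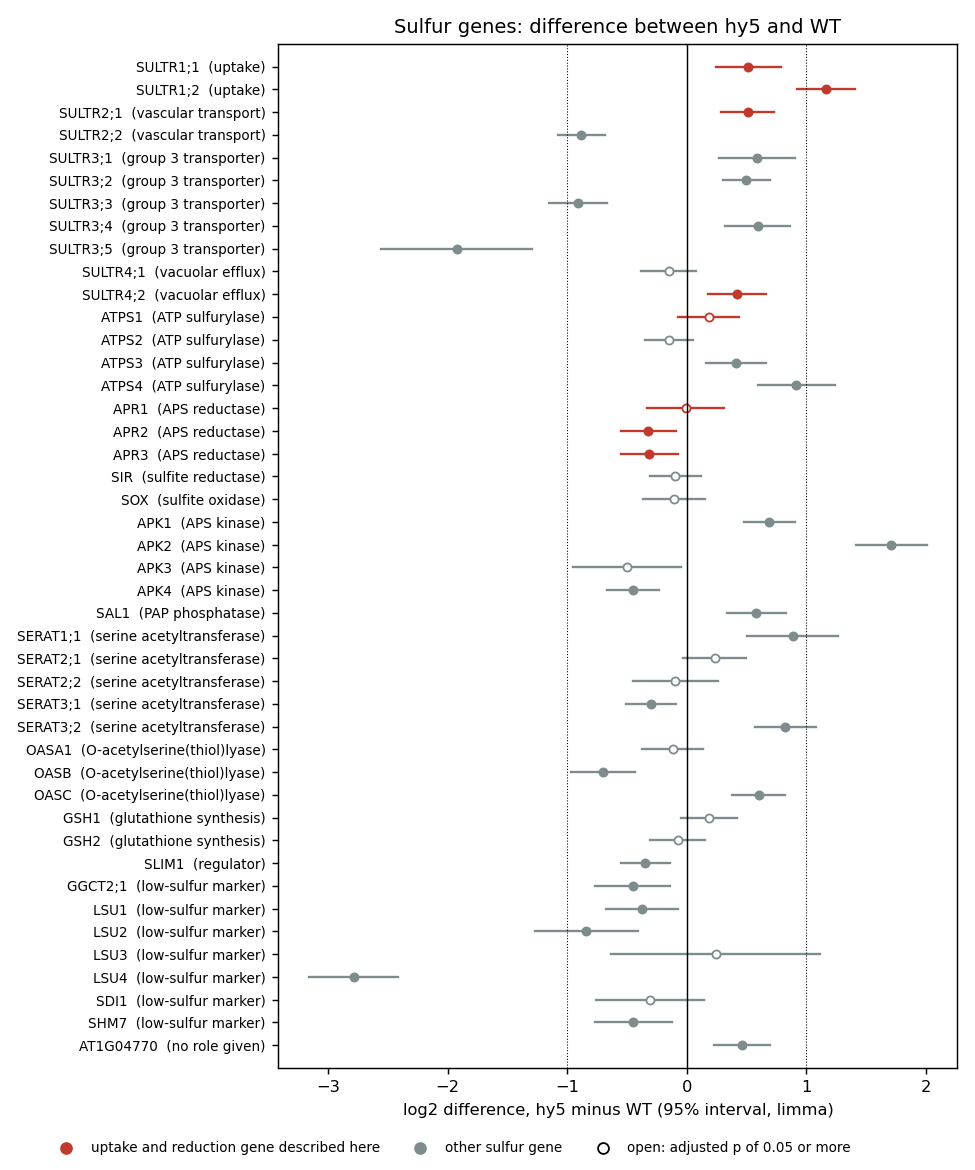
Log2 difference, *hy5* minus wild type, with its 95% interval from limma for the 44 tested sulfur genes, ordered by role. The 8 genes described first are red and the others grey, open points have an adjusted p of 0.05 or more, and dotted lines mark 2-fold. *APK2* at 1.71 is farthest to the right, and *LSU4* at -2.79 is farthest to the left.

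Transporter genes outside the 8 went both ways. AT5G19600 (*SULTR3;5*), which assists root-to-shoot transport of sulfate, had signals of 0.0134, 0.0116 and 0.00603 in *hy5*, against 0.0375, 0.0380 and 0.0358 in wild type. Its log2 difference was -1.93 (SE 0.27, limma adjusted p = 0.000972) and -1.08 with normexp, and its probe was well above background on 2 of the 3 *hy5* arrays. The vascular transporter *AST56* (AT1G77990), the *SULTR2* group relative of AT5G10180, fell with a log2 difference of -0.88 (limma adjusted p = 0.000182). It lies next to AT1G78000 in the TAIR10.1 gene table, and these neighbors moved in opposite directions. *AST91* (AT1G23090), a group 3 transporter, fell by 0.91 on the log2 scale (limma adjusted p = 0.000398). The group 3 genes AT3G51895, AT4G02700 and AT3G15990 rose by 0.59, 0.50 and 0.59 on the log2 scale (limma adjusted p = 0.00911, 0.00233 and 0.00449), and with normexp AT3G15990 was at -0.12. The other vacuolar transporter gene, AT5G13550, differed by -0.15 on the log2 scale (limma adjusted p = 0.232). The probe of AT1G22150, of the uptake group, was well above background on 1 array of each genotype and was not tested.

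In the enzyme steps, *ATPS4* rose by 0.92 on the log2 scale (SE 0.137, limma adjusted p = 0.00129), with signals of 18.2, 26.3 and 21.6 in *hy5*, against 11.7, 11.4 and 11.5 in wild type. Its 3 other tested probes were at 0.97, 1.01 and 1.37 (limma adjusted p = 0.0011, 0.000762 and 0.00031 over all tested probes), and the mean of its probes, at 1.06, passed both thresholds. *ATPS3* rose by 0.41 (limma adjusted p = 0.0142), and *ATPS2* was at -0.15 (0.173). The sulfite reductase gene *SIR*, which makes sulfide, was at -0.095 (0.406), and the sulfite oxidase gene *SOX* at -0.11 (0.443). APS kinase showed the largest rise of the list. *APK2* had signals of 1.77, 2.21 and 1.75 in *hy5*, against 0.642, 0.578 and 0.530 in wild type, a 3.27-fold rise (log2 difference 1.71, SE 0.127, limma adjusted p = 7.18e-05). *APK1*, the other isoform bound up with glucosinolate synthesis, rose by 0.69 on the log2 scale (limma adjusted p = 0.000759). *APK4* fell by 0.45 (limma adjusted p = 0.00575), and *APK3* was at -0.50 (0.061). *SAL1*, the phosphatase that clears the by-product of sulfation, rose by 0.58 on the log2 scale (limma adjusted p = 0.0031).

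Of the 5 serine acetyltransferase genes, which make the carbon backbone of cysteine, AT5G56760 and AT4G35640 rose by 0.88 and 0.82 on the log2 scale (limma adjusted p = 0.0033 and 0.000768). With normexp AT4G35640 was at -0.26. AT2G17640 fell by 0.30 (limma adjusted p = 0.0251) at its brightest probe, while its other probes were at 0.082 and 0.12. That fall lost the threshold without *hy5* replicate 3 (0.073), wild-type replicate 1 (0.0911) or wild-type replicate 2 (0.0905), and with a replicate block (0.0521). AT1G55920 and AT3G13110 were at 0.23 and -0.097 (limma adjusted p = 0.116 and 0.617). Among the O-acetylserine(thiol)lyases, which complete cysteine, the plastid form *OASB* fell by 0.70 on the log2 scale and the mitochondrial form *OASC* rose by 0.60 (limma adjusted p = 0.00184 and 0.00167). The dimmer probe of *OASB* was at -0.20 (limma adjusted p = 0.418 over all tested probes). The cytosolic form *OASA1* was at -0.12 (0.391). *GSH1* and *GSH2* of glutathione synthesis were at 0.18 and -0.077 (0.161 and 0.537) at their brightest probes. Other probes of *GSH1* were at 0.31, 0.26 and 0.37 (limma adjusted p = 0.0599, 0.0963 and 0.0136 over all tested probes). Those of *GSH2* were at 0.21, 0.21 and 0.24 (0.164, 0.127 and 0.127).

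**Figure D4:**
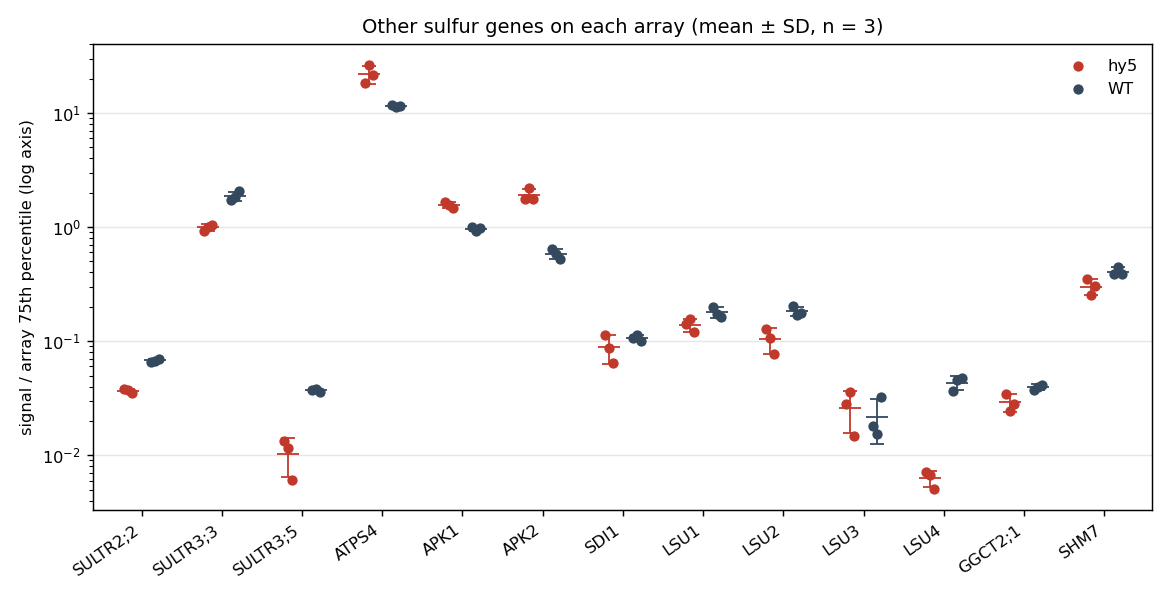
Signal over the array's 75th percentile (log axis) for 13 further sulfur genes. Each point is 1 array, with *hy5* in red on the left and wild type in dark blue on the right, and bars give the mean ± SD of 3 arrays. *ATPS4*, *APK1* and *APK2* are higher on all *hy5* arrays, and *LSU4* and AT5G19600 are lower on all of them.

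Of 8 genes listed as markers of low sulfate, which are known to rise when sulfate is scarce, 7 were tested. In *hy5*, 5 of these 7 fell and 0 rose by limma, with or without adjustment, against 26.6% and 26.3% of all genes tested. AT1G04770 entered the list of sulfur genes as *SDI2*, next to *SDI1*. It was kept apart because the gene table gives it no role. It rose by 0.46 on the log2 scale (limma adjusted p = 0.0068), and the count of 7 leaves it out. That count also leaves out AT4G08620, described above as induced when sulfate is scarce. AT4G08620 was at 0.52 (limma adjusted p = 0.00814), or -0.075 with normexp. *LSU4* was tested only through wild type, and *LSU3* only through *hy5*. Over the 5 markers well above background on all arrays together with AT1G04770, 4 of these 6 fell and 1 rose. Of the 19647 genes well above background on all arrays, 28.5% fell and 25.3% rose. The 6 genes had a median log2 difference of -0.41, against -0.031 over those 19647 genes. *LSU4* had signals of 0.00709, 0.00666 and 0.00509 in *hy5*, against 0.0363, 0.0455 and 0.0478 in wild type. Its log2 difference was -2.79 (SE 0.159, limma adjusted p = 2.88e-05) and -1.21 with normexp, and its probe was well above background on 2 of the 3 *hy5* arrays, so the size of the fall is uncertain. *LSU2*, its neighbor in the TAIR10.1 table, fell by 0.84 on the log2 scale (limma adjusted p = 0.00706). *LSU1* fell by 0.37 (0.0422) and *SHM7*, a hydroxymethyltransferase gene, by 0.45 (0.0283). The gamma-glutamyl cyclotransferase gene AT5G26220, which acts in glutathione breakdown, fell by 0.45 (0.0249). These 3 smaller falls lost the threshold in 3 to 4 of the 6 fits that left out 1 array, each of them without *hy5* replicate 3 (adjusted p = 0.127 for *LSU1*, 0.0666 for *SHM7* and 0.0704 for AT5G26220) and without wild-type replicate 2 (0.0797, 0.089 and 0.061 in the same order). The adjusted p of *SHM7* was 0.0595 with a replicate block and 0.0502 with the mean of its probes. *SDI1* was at -0.31 (0.211), and *LSU3*, neighbor of *LSU1*, at 0.24 (0.613) and at -0.59 with normexp (limma adjusted p = 0.000235). The *LSU3* probe was well above background on 1 of the 3 wild-type arrays. The offset added with normexp weighs most on such dim probes, so that value is not read as a fall. *BGLU28* was well above background on 1 *hy5* array and 0 wild-type arrays. The regulator of the low-sulfur response, *SLIM1* (*EIL3* in the gene table), fell by 0.35 on the log2 scale (limma adjusted p = 0.0128). Transcripts of the *LSU* and *APR* families are alike in sequence, and probe signal shared between their members was not tested.

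**Figure D5:**
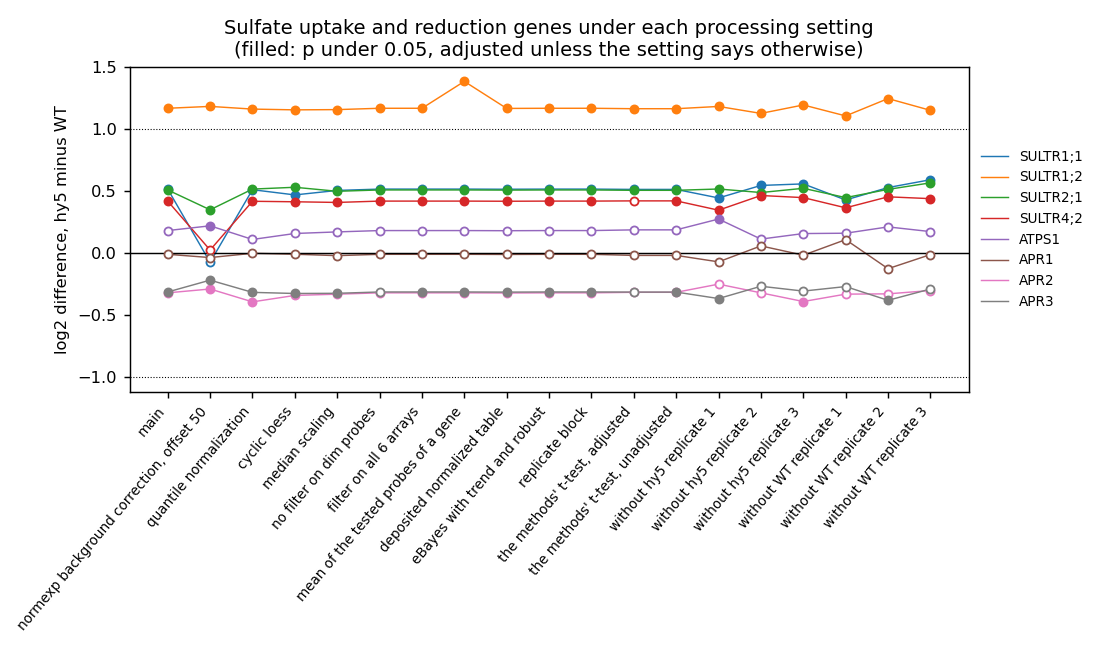
Log2 difference, *hy5* minus wild type, of the 8 genes under each processing setting. Filled points have a p under 0.05, adjusted unless the setting says otherwise, lines join the values of a gene and dotted lines mark 2-fold. *SULTR1;2* stays between 1.11 and 1.38, while *SULTR1;1* and *SULTR4;2* drop to near 0 with normexp.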

How the data were processed

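The authors deposited the scanner output of 6 one-color arrays (Agilent Feature Extraction 10.7.3, per the labels), with 1 background-subtracted intensity per spot. A series table that the authors deposited holds ratio values, each intensity over the upper quartile of its array, and served as an alternative.

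Processed signals were scaled to the 75th percentile of non-control spots on their array and log2-transformed. Spots were averaged per probe, and 30 probes flagged as outliers were dropped. Tests covered probes that were well above background in all 3 replicates of either genotype, and each gene took the value of its brightest such probe. The linear model and moderated test of limma 3.58.1 (R 4.3.3) were applied two-sided, with Benjamini-Hochberg adjustment. The precision rests on 3 arrays a genotype. On simulated arrays with the means and spreads of 21590 genes, 172 of 200 genes changed 2.5-fold were called, with 4 unchanged genes. The simulation held no slide effect, so it gives no error rate for these arrays, where slide and genotype coincide.

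The genes, lists and alternatives were chosen with earlier results of these data known. Named were the 8 genes, *HY5*, the tissue markers, the further sulfur genes and the 3 genes nearest to the most changed of the 8. All 46 sulfur genes matched the TAIR10.1 gene table, from which no coordinates were taken, because the array design is older. Replicate numbers did not pair the arrays (correlations of deviations of -0.025, -0.087 and 0.085). Alternatives changed background correction (normexp with an offset of 50), scaling, filter, probe choice and test, and left out each array.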

Additional observations from a re-analysis of the deposited data

How the results depend on the processing

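*SULTR1;2* was called in all 18 alternatives, with log2 differences of 1.15 to 1.38, or 1.11 to 1.25 when single arrays were dropped. The value of 1.38 came from the mean of its probes, the dim one included. The number of the 8 genes that fell was 2, against 1 without a filter on dim probes, 0 with the methods' t-test after adjustment, and 0 to 1 when single arrays were dropped. With normexp background correction, which moved the median of all genes to -0.20, *SULTR1;1* was at -0.075, *SULTR3;4* at -0.12, *SERAT3;2* at -0.26, *GSH2* at 0.050 and *LSU3* at -0.59. *GSH2* was at 0.15 with the mean of its probes. With each array left out, *APR1* lay between -0.13 and 0.11, *SERAT2;2* between -0.23 and 0.058 and *LSU3* between -0.028 and 0.61. Normexp here added an offset of 50 to every intensity. This is a larger share of the lower wild-type intensities, and it moves dim probes toward lower in *hy5*. How much of the normexp changes came from the offset was not tested, nor was the cause of the other changes. Among the other sulfur genes, 3 were called, against 1 with the filter on all 6 arrays (which leaves *SULTR3;5* and *LSU4* untested), 4 with the mean of probes (which adds *ATPS4*) and 3 to 6 when single arrays were dropped, the highest without *hy5* replicate 1, which added *ATPS4*, *SERAT1;1* and *LSU2*. The methods' t-test after adjustment gave 6 risen and 6 fallen, against 12 and 12. The change in the *SULTR1;2* over *SULTR1;1* log2 ratio was 0.65, against 1.26 with normexp, whose offset does not cancel in a ratio, and 0.87 with the mean of probes. *HY5* lay between -6.10 and -4.20 in all settings. Of 144 values of the 8 genes under alternatives, 125 kept both their sign and their side of the p threshold of 0.05. A further 14 lost and 2 gained significance, and 3 changed sign. The replicate numbers do not pair the arrays. With a replicate block 6 of the 8 genes passed, as without it, *SERAT3;1* (0.0521) and *SHM7* (0.0595) lost the threshold and *APK3* (0.0336) gained it, and 1420 genes were called higher and 1050 lower, against 1414 and 1046. These counts were 528 and 723 with normexp, 1383 and 3664 without a filter, and 868 and 851 with the methods' t-test after adjustment. No slide block could be fitted, because each genotype was on its own slide. Signal over background limits *SULTR1;3* and *BGLU28*, which were not tested.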
